A study of Mus musculus with 2 samples.

Results

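The genes described here encode the nuclear subunits of the oxidative phosphorylation machinery, the enzyme complexes of the mitochondrial inner membrane that carry electrons and make ATP. They were chosen by gene symbol: names of the Nduf, Sdh, Uqcr, Cox4 to Cox8 and Atp5 series with at least 1 transcript annotated as protein coding, leaving out pseudogene names and assembly factors. The rule found 85 gene identifiers with 84 symbols among 55536 annotated genes, of which 37 belonged by symbol to complex I, 4 to complex II, 8 to complex III, 18 to complex IV and 18 to complex V. The symbol Atp5o stood for a pair of gene identifiers, and the second of them was almost silent.

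The tissue was the adrenal gland of 4-day-old male B6CASTF1/J mice, the first-generation cross of C57BL/6J, a common laboratory strain, with CAST/EiJ, which derives from wild mice. Total RNA, 300 ng per library with ERCC spike-in transcripts, was sequenced from 2 biological replicates of 1 group, so no treatment, genotype or age was compared. The labels number the replicates as different males but give both the same donor label, so differences between the libraries may be technical. P-values between the libraries test only for a difference beyond counting error in these samples, and measure no spread between animals. Gene counts reached 32231301 in replicate 1 and 30292851 in replicate 2, and the files do not separate the alleles of the parental strains.

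Complex I takes electrons from NADH, complex II from succinate; complex III passes them through cytochrome c to complex IV, which reduces oxygen, and complex V, the ATP synthase, uses the proton gradient that results. Most subunits are made from nuclear genes and imported, while the mitochondrial genome supplies a few core subunits. Several complex IV subunits exist as a general form and a form restricted to certain tissues, such as heart and skeletal muscle, lung or testis. In the adrenal cortex mitochondria also house the first and last steps of steroid synthesis.

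The libraries carried the marks of their label. All 6 adrenal cortex markers and all 6 adrenal medulla markers were detected, meaning a mean level of at least 1 TPM (a count scaled by transcript length and to a fixed total per library), with Hsd3b1, a steroid dehydrogenase, at 3432 and 2477 TPM in replicates 1 and 2 and the chromaffin granule protein Chga at 758 and 681 TPM. Replicate 2 stood apart by other tissues: 8 liver markers summed to 211 TPM in replicate 1 and 5456 TPM in replicate 2, and 8 skeletal muscle markers to 651 and 1202 TPM. The part that such admixed RNA has in the levels below was not tested. In bulk tissue, fewer cells of a type and less RNA per cell cannot be told apart.

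Nearly all subunit genes were well expressed. Detection was reached by 82 of the 85 identifiers, and the median member stood at 112.6 TPM, against 11.5 TPM for the 13305 detected protein-coding genes, those members included. In replicate 1 the members took 0.827% of all counts (95% Wilson interval 0.824 to 0.830%), and in replicate 2 they took 0.843% (0.839 to 0.846%); such intervals, and the limits given for counts of 0, cover counting error only. Of the TPM assigned to protein-coding genes, they held 3.00% in replicate 1 and 2.97% in replicate 2. Ranked among protein-coding genes, 45 members were within the 500 highest and 71 within the 1000 highest.

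The order of the complexes by level depended in part on the table used. In the gene table complex III had the highest median, 177.4 TPM (172.5 in replicate 1 and 184.1 in replicate 2), followed by complex V with 145.1 TPM (137.1 and 151.8), complex II with 119.9 TPM (117.3 and 122.5), complex IV with 117.7 TPM (109.7 and 125.7) and complex I with 90.9 TPM (87.1 and 90.3). There complexes II and IV did not differ beyond the spread of their libraries. In the alignment-free table, a second quantification made without aligning the reads, complex IV had a median of 331 TPM and complex II of 189 TPM, which placed complex II below complex I at 199 TPM. Levels and orders are those of the gene table wherever no table is named. The place of complex IV rested on its tissue forms: its other 11 members had a median of 209.0 TPM (205.6 and 212.4). Outside the tissue forms the middle range of the 76 detected members was narrow, the third quartile being 2.00 times the first, although the highest and the lowest member were 119-fold apart.

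**Figure D1:**
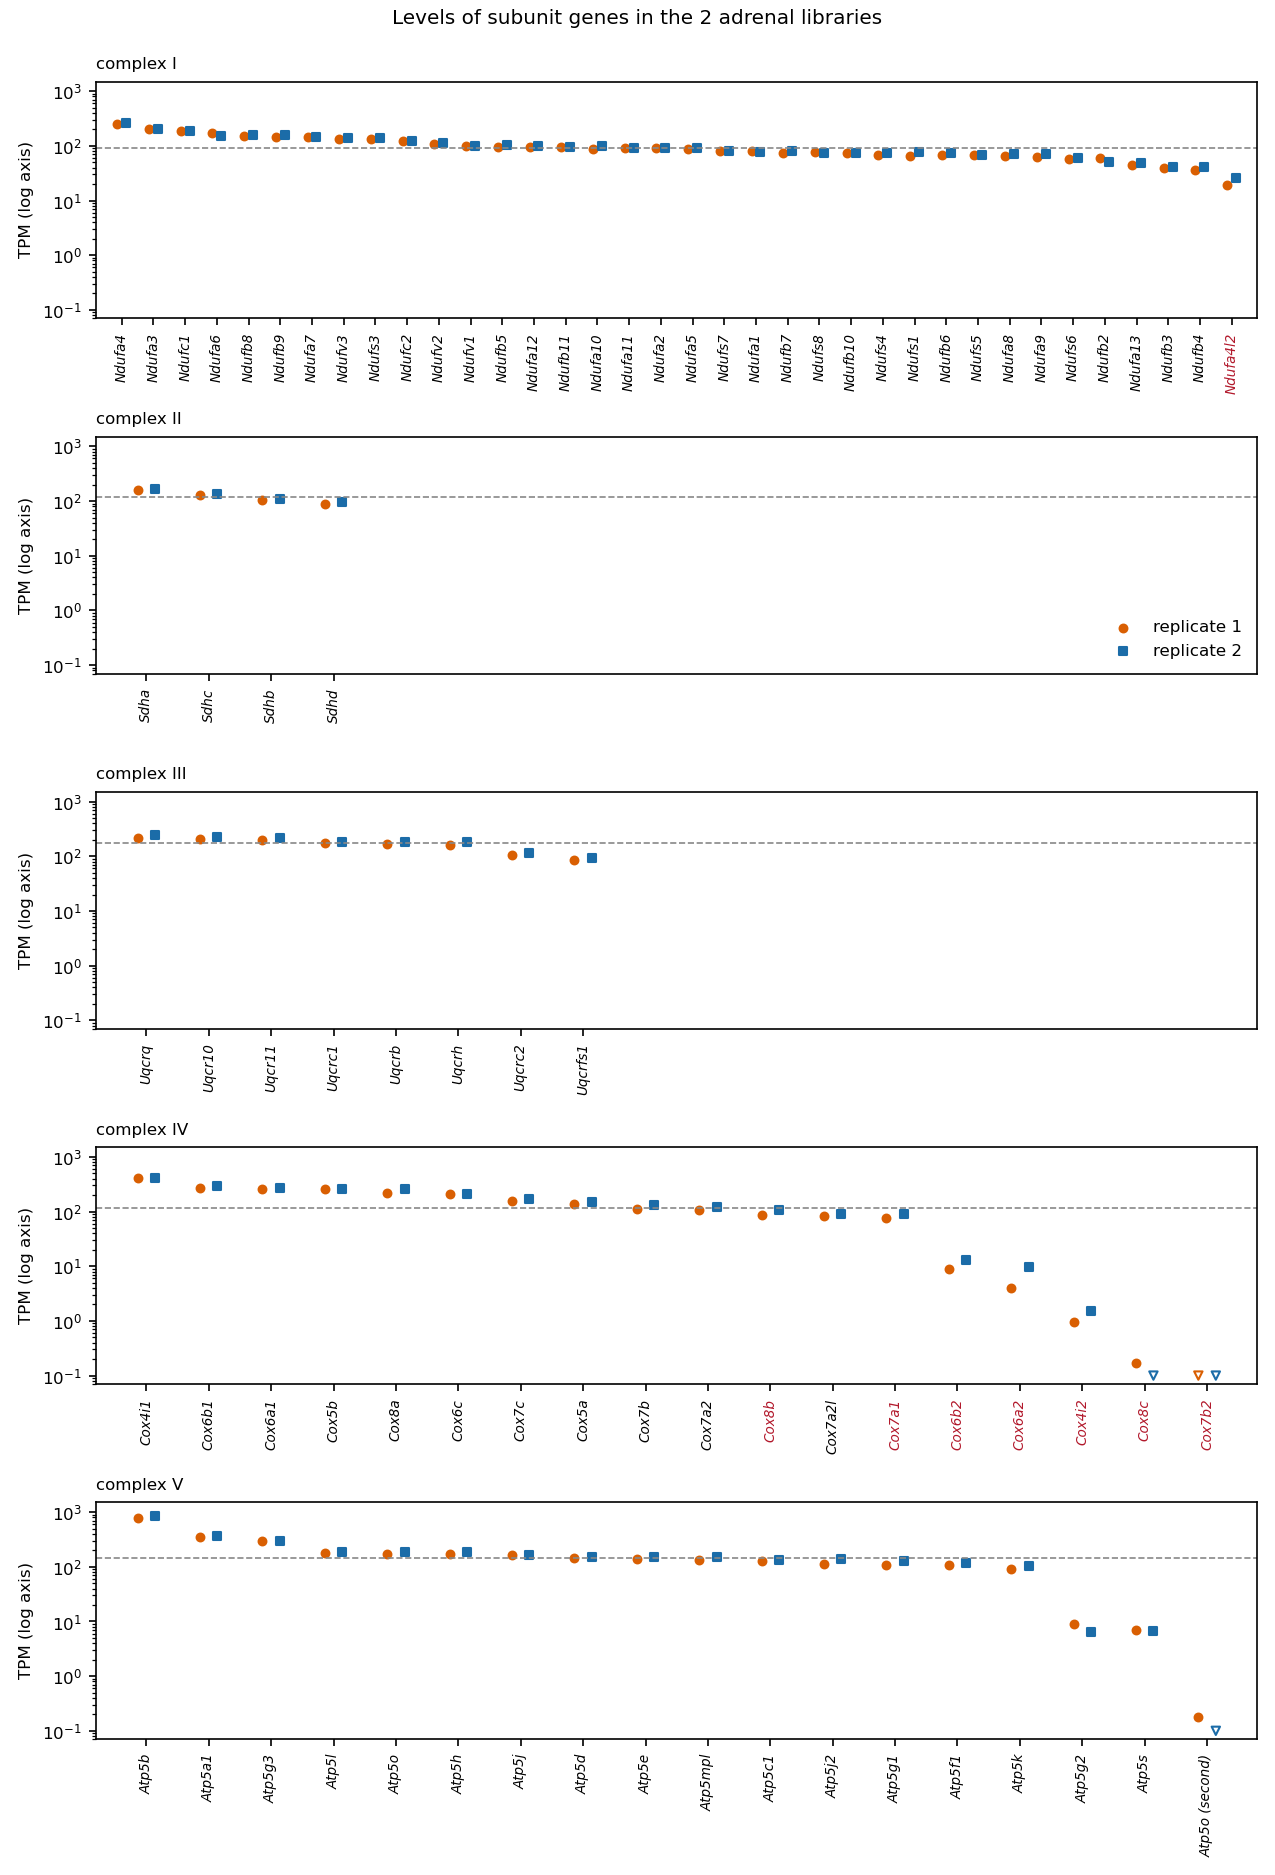
TPM (log axis) of 84 of the 85 members in replicate 1 (orange circles) and replicate 2 (blue squares), by complex and in falling order, with tissue forms named in red, the median of all members of the complex as a dashed line and a count of 0 as an open triangle at the bottom. Both libraries gave nearly the same level for almost every member drawn, and the low values were mostly the tissue forms of complex IV.

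Complex I was led by Ndufa4, Ndufa3 and Ndufc1 in the gene table. Ndufa4, a subunit that later biochemical work places in complex IV despite its name, was measured at 249 and 265 TPM in replicates 1 and 2 (257 ± 11.1 TPM, SD, n = 2). The accessory subunit Ndufa3 followed with 204 and 199 TPM, and Ndufc1, another accessory subunit, with 185 and 188 TPM. These 3 genes kept the same order in both libraries with no overlap. In the transcript tables of aligned reads, 9.0% of the Ndufa3 TPM and 36.0% of the Ndufc1 TPM went to transcripts annotated as coding, against 99.7% for Ndufa4. The alignment-free table gave another order, with the accessory subunit gene Ndufb8 (437 and 458 TPM) above Ndufa4 (424 and 429 TPM), and with Ndufs3, Ndufa6 and Ndufb9, at means of 366, 336 and 316 TPM, above Ndufc1 and Ndufa3, at 262 and 257 TPM. The 7 nuclear core subunits, which carry the flavin and the iron-sulfur clusters, had a median of 99.4 TPM (98.6 and 100.3), and the 30 other members 89.4 TPM (86.6 and 90.04).

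The low end of complex I held a tissue form and a subunit with a pseudogene copy. Ndufa4l2, a relative of Ndufa4 known for its induction in low oxygen and its expression in the cells around small vessels, was lowest with 18.9 and 25.4 TPM (22.2 ± 4.59 TPM). The membrane arm subunit Ndufb4 was next with 36.8 and 41.5 TPM, a gene with a near-identical copy. Its low place held in the gene table only. In the alignment-free table Ndufb4 stood above the complex I median of 199 TPM. Across all 37 identifiers of complex I, none fell under the detection level.

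Succinate dehydrogenase, complex II, is entirely nuclear encoded and also part of the citric acid cycle. Its flavoprotein gene Sdha had 160 and 168 TPM (163.7 ± 5.54 TPM) in replicates 1 and 2, and the membrane anchor gene Sdhc 130 and 137 TPM. The iron-sulfur subunit gene Sdhb had 105 and 108 TPM, and the second anchor gene Sdhd 86.8 and 96.4 TPM. The 4 genes kept this order in both libraries of the gene table, with no overlap between neighbours, and spanned a narrow range. In the alignment-free table Sdhb (231 and 222 TPM) stood above Sdhc (153 and 148 TPM), and Sdhc overlapped Sdhd (146 and 155 TPM).

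In complex III 3 small subunits led. Uqcrq had 214 and 242 TPM (228 ± 19.8 TPM), Uqcr10 205 and 225 TPM, and Uqcr11 202 and 217 TPM, values that overlap between replicates. Uqcrc1, one of the core proteins on the matrix side, had 176 and 186 TPM. The other core protein gene Uqcrc2, with 107 and 116 TPM, and the Rieske iron-sulfur protein gene Uqcrfs1, with 84.4 and 91.8 TPM, formed the low end, and their values did not overlap. Cyc1, the cytochrome c1 gene of this complex whose symbol lies outside the rule, had 97.8 and 113 TPM.

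Complex IV, cytochrome c oxidase, was led by its regulatory subunit gene Cox4i1, whose libraries agreed within a fraction of a percent at 409.8 and 409.6 TPM. Cox6b1, on the intermembrane side, followed with 269 and 294 TPM, Cox6a1 with 261 and 267 TPM, and Cox5b, a matrix-side subunit, with 255 and 254 TPM. These 3 kept the same order in both libraries of the gene table, close together and without overlap. In the alignment-free table Cox4i1 also led, followed by Cox7c (692 and 685 TPM) and Cox6c (635 and 614 TPM). The lowest members of the complex were the testis forms Cox8c and Cox7b2, given with the other tissue forms.

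Complex V held the highest member of all. Atp5b, the catalytic beta subunit of the ATP synthase, had 776 and 837 TPM (806 ± 43.2 TPM, SD, n = 2), the place 30 among all protein-coding genes. The alpha subunit gene Atp5a1 had 346 and 366 TPM, a level 0.442 times that of Atp5b. Alpha and beta subunits are present in equal number in the enzyme, and this difference between their gene totals exceeded the spread of the libraries. With reads aligned, 63.1% of the Atp5b TPM and 97.0% of the Atp5a1 TPM went to transcripts annotated as coding. The difference between coding transcripts alone was therefore smaller. Atp5g3, a gene for the c subunit of the membrane rotor, had 297 and 301 TPM, and Atp5l, the gene for subunit g, 176 and 189.5 TPM.

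At the low end of complex V, Atp5s, an auxiliary coupling factor gene, had 7.03 and 6.58 TPM. The second Atp5o identifier held 2.56 and 0 estimated counts, within the 3 counts taken as the limit of detection, and shares exons with the Donson and the main Atp5o gene. The main Atp5o gene, which encodes the stalk subunit that confers oligomycin sensitivity, had 168 and 188 TPM.

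Subunit messages were short. The median length of the detected members was 667 bases, against 2413 bases for detected protein-coding genes, and 34 of 82 members (41.5%) against 2.10% of those genes were under 600 bases. Among the 76 detected members other than tissue forms, shorter messages tended weakly to higher TPM (Spearman rho of length with TPM -0.25, a description across genes of the same libraries whose TPM is itself computed from length). The members lay on 19 chromosomes, with 3 on the X chromosome, of which males carry a single copy: Cox7b, Ndufb11 and Ndufa1 had 122.8, 94.98 and 78.4 TPM.

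Of the 8 tissue forms, a pair reached the level of ordinary subunits. Cox8b, the heart and skeletal muscle form of the smallest complex IV subunit, which is also a marker of brown fat, had 85.7 and 105 TPM in replicates 1 and 2, against 221 and 255 TPM for its general form Cox8a. Cox8b thus made up 27.9% and 29.2% of the sum of both, and its log2 ratio to Cox8a was -1.32 ± 0.06 (SD, n = 2). Cox7a1, the muscle form of subunit 7a, had 75.4 and 88.6 TPM, against 106 and 119 TPM for its general form Cox7a2. Its share was 28.0% and 29.3% in the alignment-free table, with a log2 ratio of -1.32 ± 0.07, and 41.5% and 42.7% in the gene table, with a log2 ratio of -0.46 ± 0.05. In both libraries and both tables the general form was the higher one.

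The other tissue forms were minor. Ndufa4l2 had 18.9 and 25.4 TPM against 249 and 265 TPM for Ndufa4, a log2 ratio of -3.55 ± 0.24. Cox6b2, known from testis, had 9.03 and 13.0 TPM against 269 and 294 TPM for Cox6b1 (log2 ratio -4.70 ± 0.28). Cox6a2, the heart and skeletal muscle form, had 4.00 and 9.51 TPM against 261 and 267 TPM for Cox6a1 (log2 ratio -5.42 ± 0.86), the widest spread of the pairs that could be measured. Cox4i2, the lung form, had 0.96 and 1.49 TPM, from 20 and 28 counts, against 409.8 and 409.6 TPM for Cox4i1 (log2 ratio -8.42 ± 0.45). All 4 general forms were far above the range of their tissue forms.

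Of the forms known from testis, Cox8c and Cox7b2 were at the limit of the data, while Cox6b2 had 118 and 142 counts. Cox8c had 2 counts in replicate 1 and 0 in replicate 2, where 3 counts would amount to 0.252 and 0.280 TPM. Cox7b2 had 0 counts in both libraries, which allows up to 0.204 TPM in replicate 1 and 0.227 TPM in replicate 2. Testis germ cell markers were near absent as well, 0 of 6 being detected and 4, namely Tnp1, Prm1, Prm2 and Ldhc, at 0.

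**Figure D2:**
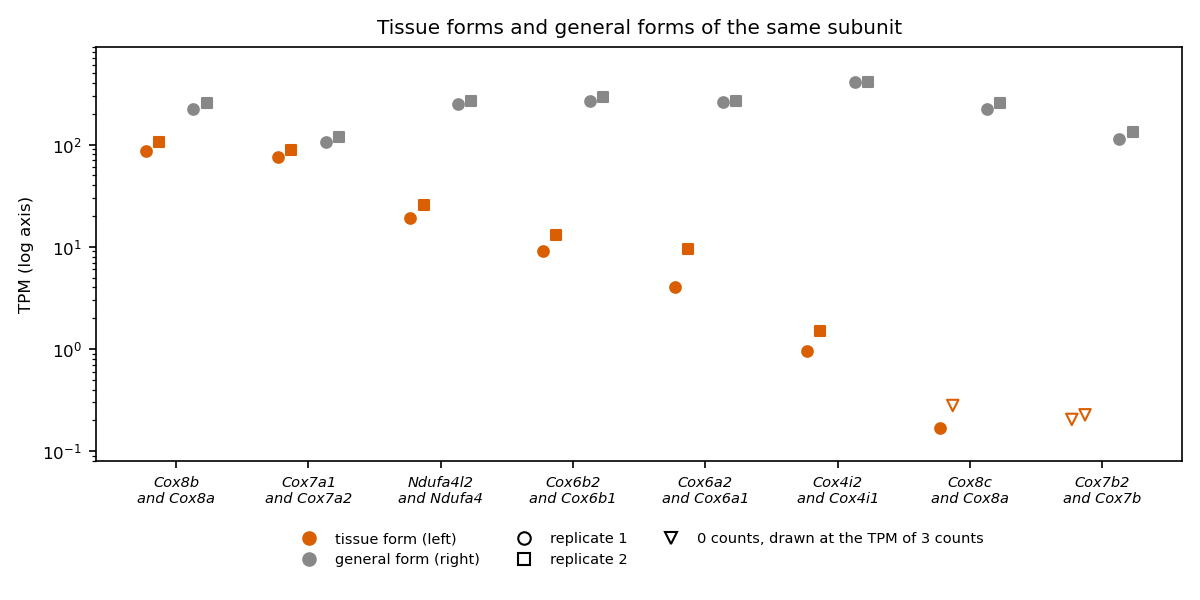
TPM (log axis) of each tissue form (orange, left) and the general form of the same subunit (grey, right) in replicate 1 (circles) and replicate 2 (squares); open triangles mark 0 counts and are drawn at the level 3 counts would give. Cox8b and Cox7a1 came within a small factor of their general forms, while the others lay far lower.

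Markers of tissues known for these forms were measured in the same libraries. Skeletal muscle markers were all detected, 8 of 8, with the actin gene Acta1 highest at 222 and 389.5 TPM in replicates 1 and 2. Of the cardiac markers 2 of 6 were detected, summing to 6.43 and 12.1 TPM over the list, and the atrial peptide gene Nppa was at 0. Of the 8 brown fat markers, a list that includes Cox8b itself, 7 were detected, summing to 757 and 929 TPM. The highest of them was Fabp4, with 349 and 407 TPM. The thermogenic uncoupling protein gene Ucp1 had 105 and 174 TPM, and Cidea, a lipid droplet protein gene, 41.7 and 43.8 TPM. Dio2 was near the detection level with 1.18 and 1.12 TPM, and Elovl3 was not detected, with 0.08 and 0.33 TPM. Markers of mural cells, the pericytes and smooth muscle cells around vessels, were detected in 8 of 8 cases and summed to 74.9 and 81.4 TPM. The part of these cells in the levels of Cox8b, Cox7a1, Cox6a2, Cox4i2 and Ndufa4l2 was not tested.

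Cox8b and Cox7a1 also differed from their general forms in the DNA before the transcription start. The 120 bases upstream of the start, from the RefSeq promoter table on GRCm38.p6 (mm10), are shown for the pair of best expressed tissue forms and their general forms, 5′ to 3′ on the strand of the gene, with each CG dinucleotide in capitals. Cox8b lies at chr7:140900447-140900566 (minus strand) and Cox8a at chr19:7217617-7217736 (minus strand), and Cox7a1 at chr7:30184051-30184170 (plus strand) and Cox7a2 at chr9:79759854-79759973 (minus strand).
Cox8b: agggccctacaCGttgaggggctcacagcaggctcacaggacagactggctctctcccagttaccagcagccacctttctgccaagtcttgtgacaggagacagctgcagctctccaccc
Cox8a: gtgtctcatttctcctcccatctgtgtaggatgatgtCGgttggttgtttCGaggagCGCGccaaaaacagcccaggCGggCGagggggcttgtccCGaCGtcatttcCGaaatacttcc
Cox7a1: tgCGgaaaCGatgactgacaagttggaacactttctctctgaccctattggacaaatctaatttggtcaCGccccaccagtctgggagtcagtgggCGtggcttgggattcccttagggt
Cox7a2: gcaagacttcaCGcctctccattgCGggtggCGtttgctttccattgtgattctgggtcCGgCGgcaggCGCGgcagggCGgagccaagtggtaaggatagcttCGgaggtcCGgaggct
Cox8b held 1 CG and Cox8a 9, while Cox7a1 held 4 and Cox7a2 10.

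Over the promoters that the table covers, tissue forms were lower in the median but not in every pair. For 68 of the 84 symbols it gave 73 promoters of 300 bases, 250 before and 50 after the start. The ratio of observed CG to that predicted from base composition had a median of 0.82 in 69 promoters of members other than tissue forms, and of 0.38 in the 4 of tissue forms, which belong to Cox8b (0.11), Cox7a1 (0.33), Cox6b2 (0.43) and Cox7b2 (0.56). All 32851 promoters of the table had a median of 0.38, and the 21262 of protein-coding genes 0.57. Cox7b2 was above its own general form Cox7b, at 0.37. Besides Cox7b, the other members Ndufc2 (0.48), Ndufb2 and Ndufb7 (both 0.52), Ndufs8 (0.53) and Ndufa3 (0.56) also lay within the range of the tissue forms.

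The c subunit of complex V has 3 genes that encode the same mature protein with different import sequences, and the alignment-free table and the gene table gave them different shares. In the alignment-free table Atp5g2 had 326 and 328 TPM in replicates 1 and 2, Atp5g1 179 and 195 TPM, and Atp5g3 576 and 543 TPM. Atp5g3 so held 52.1 ± 1.66% of the c subunit message, Atp5g2 30.4 ± 0.43% and Atp5g1 17.5 ± 1.23% (SD, n = 2). In the gene table Atp5g2 had 8.85 and 6.43 TPM, Atp5g1 109 and 126 TPM, and Atp5g3 297 and 301 TPM, and the shares were 70.5 ± 1.58% for Atp5g3, 27.7 ± 2.04% for Atp5g1 and 1.81 ± 0.46% for Atp5g2. Atp5g2 was thus the second most abundant of the 3 in the alignment-free table and the least abundant in the gene table, a difference far beyond the spread between libraries.

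A near-identical gene held far more counts than Atp5g2 in the gene table. Gm10175, annotated as a transcribed processed pseudogene at chr7:23946646-23947290 (mm10, minus strand), matched an Atp5g2 transcript at 100% of 645 bases. It had 69.0 and 132 counts in the alignment-free table and 3033 and 3036 counts in the gene table, where Atp5g2 itself had 183 and 117. With its 4 copies added, Atp5g2 reached 177 and 193 TPM in the gene table and 29.98 ± 0.52% of the c subunit message, close to its alignment-free share. Reads that match both genes equally cannot be assigned by sequence, so the level of Atp5g2 alone is uncertain in both tables.

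Such copies were common. Outside the rule, 78 genes, of which 76 are annotated as pseudogenes, matched a transcript of 33 members at 90% identity or more over at least 150 bases and at least 50% of the shorter transcript. Most were silent or nearly so, 58 having a mean of 3 counts or fewer, and 11 had 100 or more. Besides Gm10175 these included Gm12338 with 1241 and 1130 counts and Gm10012 with 390 and 357 counts, both copies of Cox7c, and Ndufb4c with 1061 and 974 counts, a copy of Ndufb4. Gm10221 had 792 and 744 counts as a copy of Atp5l, Gm10250 had 579 and 571 as a copy of Atp5h, and Gm6969 had 501 and 486 as a copy of Cox7a2l.

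Over 13282 detected protein-coding genes with values in both, the alignment-free TPM was 1.86 times the gene-table TPM in the median (log2 0.89), and the median over the 82 detected members was 1.04 on the log2 scale. Of these members 4 lay more than 2-fold above that median shift, where 0.647% of all genes did, and 0 lay more than 2-fold below it, where 0.602% did. They were Atp5g2 (a log2 ratio of 5.42, alignment-free over gene table), Ndufb4 (2.71), Cox7c (2.09), a small complex IV subunit, and Atp5e (2.01), the epsilon subunit of the ATP synthase; Cox7a2 followed at 1.78. At the other end were Sdhc (0.18), Ndufa3 (0.35), Ndufa1 (0.48), an accessory subunit, Ndufc1 (0.50) and Ndufa10 (0.51).

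Adding the copies in both tables brought 3 of the 4 to within 2-fold of the median shift. The TPM of a copy is computed from its own length, so such a sum is not the level of the member. Ndufb4 had 39.2 TPM alone and 150.2 TPM with its copy in the gene table, and its log2 ratio became 0.77. Cox7c had 162 TPM alone and 611 TPM with 5 copies, and its log2 ratio became 0.17, on the other side of the shift of 0.89. Atp5e had no copy by these criteria and stayed at 2.01, so it alone remained more than 2-fold above the shift. The 34 members under 600 bases had a median log2 ratio of 1.10, and the 48 longer ones 1.02. The part of length in the difference between the tables was not tested.

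**Figure D3:**
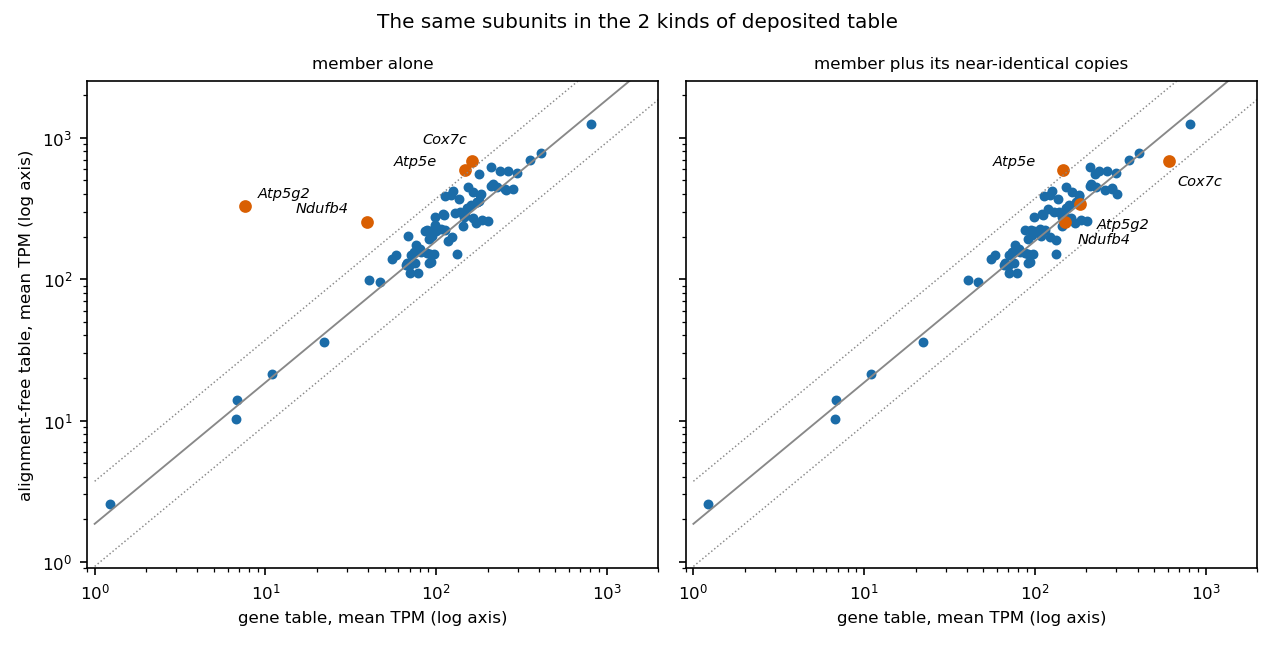
Mean TPM of each detected member in the gene table (horizontal, log axis) against the alignment-free table (vertical, log axis), for the member alone (left) and with its near-identical copies added in both tables (right); the solid line is the median shift over protein-coding genes and the dotted lines are 2-fold from it. Atp5g2, Ndufb4, Cox7c and Atp5e (orange) lay above the upper dotted line alone, and with copies only Atp5e did.

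A related gene changed its place with this choice. Cox7a2l, a relative of Cox7a2 that joins complexes III and IV into supercomplexes and of which C57BL/6J carries a shortened allele, had 83.0 and 89.8 TPM in replicates 1 and 2, against 106 and 119 TPM for Cox7a2, a log2 ratio of -0.38 ± 0.03. In the alignment-free table the ratio was -0.81 ± 0.04. With its copy Gm6969 added in the gene table it was 0.42, the reverse order.

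Between the 2 libraries the members hardly differed. For each gene an exact binomial test, two-sided, set the counts of replicate 1 against those of replicate 2 given library sizes set by the trimmed mean of M-values (TMM), with Benjamini-Hochberg adjustment over the 18160 genes kept by a count filter, a test that compares these libraries and not conditions. Log2 ratios are replicate 1 over replicate 2. The 82 members that passed the filter had a median log2 ratio of -0.02, with 37 higher in replicate 1 and 45 higher in replicate 2, and all kept genes a median of 0.00. The median size of the difference, regardless of sign, was 0.06 for the members, 0.135 for detected protein-coding genes and 0.17 for all kept genes. All kept genes had a median level of 7.4 TPM against 112.6 TPM for the members. The part of this difference in level in the contrast, and in the calls below, was not tested.

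Calls, meaning an adjusted p under 0.05 and more than 1.5-fold, were made for 0 members higher in replicate 1, against 1.7% of all kept genes, and for 1 member higher in replicate 2, against 6.02%. At any size, 18 of the 82 passed the adjusted p (22.0%), where 33.5% of all kept genes did. The member called was Cox6a2, with 77 and 165 counts, that is 4.00 TPM in replicate 1 and 9.51 TPM in replicate 2 (log2 ratio -1.15, adjusted binomial p = 2.93e-08). Next in size came Atp5g2, with 183 and 117 counts (log2 ratio 0.58, adjusted binomial p = 0.00307), just under the 1.5-fold limit.

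The tissue forms leaned to replicate 2 together. All 6 that passed the filter had negative log2 ratios, between -1.15 for Cox6a2 and -0.15 for Cox7a1, with Cox4i2 at -0.53, Cox6b2 and Ndufa4l2 at -0.32 and Cox8b at -0.20, and their median was -0.32. Of the other members 39 of 76 were higher in replicate 2, with a median of 0.00, and of all kept genes 9089 of 18160. Adjusted binomial p was under 0.05 for Cox6a2, Ndufa4l2 (0.00151) and Cox8b (0.0205), and over it for the other 3. Skeletal muscle markers were higher in replicate 2 in 8 of 8 cases (median log2 ratio -0.80, 7 called) and liver markers in 8 of 8 (median -4.77, 8 called). The 2 cardiac markers that passed the filter were also higher in replicate 2 (median -0.52, 1 called, Actc1 at -0.95). Mural cell markers were higher in replicate 2 in 6 of 8 cases, with a median of -0.05 and 0 called. Brown fat markers, Cox8b included, were higher in replicate 2 in 5 of 7 cases, with a median of -0.15 and 1 called, Ucp1 at -0.65. Markers of the gland's own cells went the other way: those of adrenal cortex were higher in replicate 1 in 6 of 6 cases (median 0.38, 1 called, the steroid hydroxylase gene Cyp21a1) and those of adrenal medulla in 6 of 6 (median 0.24, 0 called). Whether muscle, other admixed tissue or the share of adrenal cells set the tissue forms' values was not tested.

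**Figure D4:**
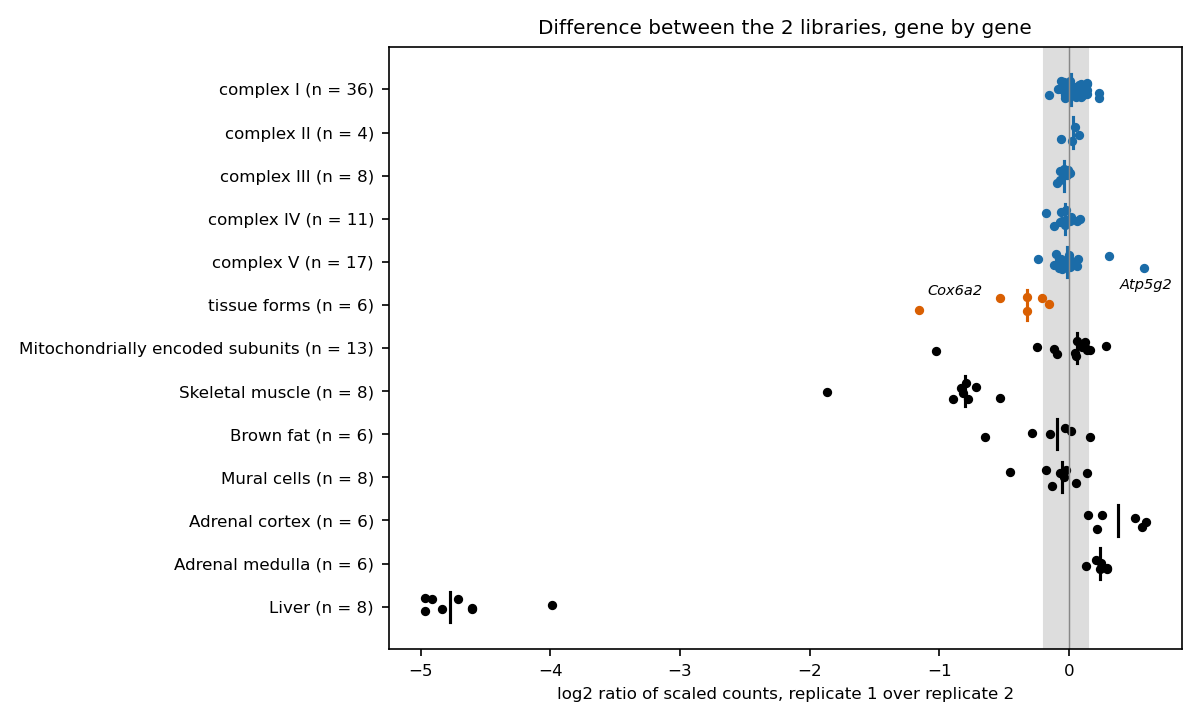
Log2 ratio of scaled counts, replicate 1 over replicate 2, for members other than tissue forms by complex (blue), for tissue forms (orange) and for lists of mitochondrially encoded and marker genes (black, with tissue forms left out of the marker lists); vertical bars are medians and the grey band spans the first to the third quartile of all kept genes. Most members of the 5 complexes sit inside or beside the band, with Atp5g2 at 0.58 well to its right. Skeletal muscle markers and the tissue forms other than Cox7a1, at -0.15, lie to its left, and liver markers far to the left.

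In a minority of members the transcript of highest TPM was not annotated as coding. The share of all genes with such a main transcript was not counted, so this is not shown to be particular to the members. The 85 genes had 384 annotated transcripts, and 74.0 ± 0.15% of the members' TPM in the alignment-free tables went to transcripts of type protein coding, 12.1 ± 0.15% to processed transcripts, 10.5 ± 0.13% to retained introns and 3.35 ± 0.13% to transcripts annotated for nonsense-mediated decay (SD, n = 2). The alignment-based transcript tables gave the coding type more, 83.1 ± 0.05%. The transcript of highest TPM was of another type than protein coding in 15 of the 84 members with a value in the alignment-free tables and in 9 in the alignment-based tables.

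Only 5 members had such a transcript on top in both kinds of table, and 4 of them the same one. Ndufa3-204, annotated for nonsense-mediated decay and 343 bases long, held 44.7 ± 2.0% of the Ndufa3 TPM without alignment and 89.7 ± 0.2% with it. Ndufs4-204, annotated the same way for a subunit needed to complete complex I, held 52.4 ± 10.8% and 46.8 ± 4.8%. Ndufa5-204, a processed transcript of an accessory subunit gene, held 63.9 ± 7.7% and 67.7 ± 3.8%, and Ndufb4-202, a retained intron form of 465 bases, held 89.9 ± 0.3% and 71.4 ± 3.1%. Ndufc1 was the fifth, with Ndufc1-202 at 96.4% in the alignment-free table and Ndufc1-203 at 57.3% in the other.

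The other 10 of the 15 had a coding transcript on top once reads were aligned. For Cox6a1 the retained intron form Cox6a1-202, of 620 bases, held 90.1 ± 0.6% without alignment and 0.9% with it, where Cox6a1-201, of 571 bases, held 99.1%. Uqcrh, the hinge protein gene of complex III, gave 89.5 ± 4.9% to Uqcrh-204 without alignment and 2.8% with it, and Atp5k, the gene for subunit e of the ATP synthase, gave 88.7 ± 2.9% and 1.6% to Atp5k-203. Cox7b, a small subunit of complex IV, gave 99.7% to Cox7b-203 without alignment and 47.6% with it. The others were Ndufs6, Ndufb2, Ndufa7, Uqcr11, Cox7a2 and Atp5l, for whose top form the alignment-free share was 49.0 to 74.7% and the alignment-based share 0.0 to 23.4%. The opposite was seen in 4 members, with a coding transcript on top without alignment and another type with it. Of the Atp5j TPM, the retained intron form Atp5j-208 held 27.2% without alignment and 76.0 ± 0.8% with it, and of the Cox5b TPM the processed transcript Cox5b-205 held 12.46% and 63.1 ± 0.1%. The others were Atp5f1, with Atp5f1-203 at 39.8% and 47.3%, and Ndufa10, with Ndufa10-205 at 0.0% and 27.0%, and in both the aligned libraries differed in their top transcript. Both kinds of table named the same main transcript for 57 members and different ones for 27, while replicates within the alignment-free tables agreed for 80. The main transcript thus differed between kinds of table far more often than between libraries.

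Promoters of the members were searched for the exact letters of 7 motifs on both strands; matches of different motifs overlapped in 0 member promoters. The palindrome of NRF1, a factor that binds many genes of mitochondrial function, occurred in 5 of the 73 promoters (6.85%), against 0.971% of all 32851 promoters and 1.33% of those of protein-coding genes. CCGGAAG, the core bound by ETS factors including GABPA, occurred in 16 (21.9%) against 8.86 and 11.6%, and AAGATGGC, bound by YY1, in 10 (13.7%) against 2.75 and 3.05%. No test was made of these shares, and a match is letters in a window, not a bound site. None of these 3 occurred in the 4 promoters of tissue forms.

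The NRF1 letters are spelled out, in capitals, for 4 promoters in which they lie before the start, within 50 bases 5′ to 3′ on the strand of the gene, because their distance to the start varies little in 3 of them. The positions are chr15:102671060-102671109 for Atp5g2, chr5:108434420-108434469 for Atp5k, chr5:115349091-115349140 for Cox6a1 (all minus strand) and chr17:56717682-56717731 for Ndufa11 (plus strand), on GRCm38.p6.
Atp5g2: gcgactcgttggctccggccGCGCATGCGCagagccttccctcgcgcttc
Atp5k: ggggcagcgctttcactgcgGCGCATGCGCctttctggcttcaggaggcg
Cox6a1: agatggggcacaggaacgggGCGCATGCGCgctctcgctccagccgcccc
Ndufa11: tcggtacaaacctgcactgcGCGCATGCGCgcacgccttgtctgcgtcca
The letters began at -42 in Atp5g2, -50 in Atp5k, -60 in Ndufa11 and -162 in Cox6a1, counted from the start; in the fifth promoter, that of Uqcrc1, they began at 31 after it.

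The YY1 letters mostly lay just after the start. In 8 of the 10 promoters they lay on the gene's own strand within the 50 bases after the start, beginning at positions 23 to 39, a placement found in 10.96% of member promoters, 0.865% of all promoters and 1.24% of those of protein-coding genes; this window was chosen after the positions were seen. In all 8 the ATG inside the letters was the annotated start codon of the gene. The 30 bases around the letters, in capitals, are shown 5′ to 3′ on the strand of the gene, since they hold both the motif and the first codons.
Ndufa3: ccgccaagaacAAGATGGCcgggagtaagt
Ndufa9: cattgtgggagAAGATGGCggccgccgtcc
Ndufb8: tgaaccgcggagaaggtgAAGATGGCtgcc
Ndufc1: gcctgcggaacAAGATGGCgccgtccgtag
Ndufs4: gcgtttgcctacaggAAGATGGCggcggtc
Ndufs6: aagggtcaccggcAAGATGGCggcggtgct
Ndufs7: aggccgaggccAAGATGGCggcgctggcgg
Atp5j2: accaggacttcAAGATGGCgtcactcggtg
They stand at chr7:3617384-3617413 for Ndufa3 (plus strand), chr6:126849097-126849126 for Ndufa9, chr19:44555393-44555422 for Ndufb8, chr3:51408915-51408944 for Ndufc1, chr13:114388045-114388074 for Ndufs4, chr13:73328433-73328462 for Ndufs6, chr10:80249462-80249491 for Ndufs7 (plus strand) and chr5:145191500-145191529 for Atp5j2, the others on the minus strand. Of the 8, 7 belong to complex I and Atp5j2, subunit f of the ATP synthase, to complex V.

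The letters of NF-Y and of the TATA box were at similar shares in members and in all promoters. CCAAT, bound by NF-Y, occurred in 42.5% of member promoters against 37.4% of all, and the TATA box letters TATAAA in 10.96% against 13.6%. Those of CREB and ESRRA were more frequent among members. TGACGTCA, bound by CREB, occurred in 4 promoters (5.48% against 1.79%), those of Ndufa10, Ndufb2, Uqcrfs1 and Ndufa11. TGACCTTG, bound by the estrogen-related receptor ESRRA, also occurred in 4 (5.48% against 1.56%), those of Atp5g3, Ndufs5, Atp5l and Sdhd. With 4 or 5 promoters a motif, these shares rest on few sequences. The letters of NRF1, ETS factors and CREB contain CG. The median ratio of observed to predicted CG was 0.82 in promoters of members other than tissue forms, against 0.57 for protein-coding genes. Shares of the motifs were not matched for CG content, and its part in them was not tested.

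**Figure D5:**
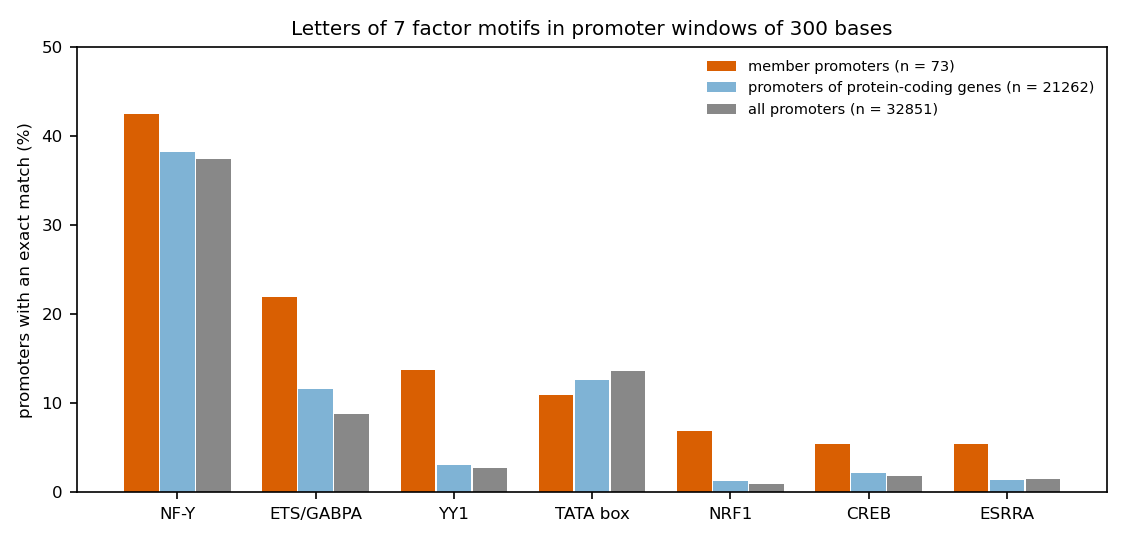
Share of promoters with an exact match to the letters of each motif on either strand, for members (orange), protein-coding genes (light blue) and all promoters (grey), each promoter being 300 bases around the start. NRF1, ETS, YY1, CREB and ESRRA letters were more frequent among members, while NF-Y and TATA box letters were at similar shares.

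Regulators of mitochondrial genes were expressed about as high as the median protein-coding gene. All 12 of the list were detected, with a median of 10.9 TPM, against 11.5 TPM for detected protein-coding genes, and 0 were called between the libraries. Yy1 had 29.8 and 24.9 TPM in replicates 1 and 2, the mitochondrial transcription factor gene Tfam 22.4 and 25.1 TPM, the mitochondrial RNA polymerase gene Polrmt 21.4 and 24.3 TPM and Gabpa 20.2 and 20.4 TPM. The coactivator gene Ppargc1a was lowest with 2.41 and 4.38 TPM.

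Assembly factors, proteins that build the complexes without staying in them, were about an order of magnitude below the subunits. All 45 were detected and 0 were called, with medians of 12.7 TPM in replicate 1 and 11.3 TPM in replicate 2 for 14 factors of complex I, and, as the mean of both libraries, of 12.2 TPM for 4 of complex II, 14.8 TPM for 6 of complex III, 20.2 TPM for 18 of complex IV and 25.1 TPM for 3 of complex V. The highest of complex IV were Cox14, with 74.1 and 67.9 TPM, and the copper chaperone gene Cox17, with 63.6 and 61.1 TPM. Uqcc2 led complex III with 51.8 and 48.9 TPM and Foxred1 complex I with 20.5 and 22.5 TPM. Cox14, the highest of all 45, stood below the median of every complex.

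Subunits and carriers whose symbols lie outside the rule resembled the members in their median, though not in every gene. Their 9 genes had a median of 105.6 TPM and 0 calls, led by the electron transfer flavoprotein genes Etfa, with 162 and 165 TPM, and Etfb, with 147 and 162 TPM. Slc25a5, an exchanger of ADP and ATP, had 139 and 152 TPM and Ndufab1, the acyl carrier subunit of complex I, 132 and 145 TPM. The carrier cytochrome c, Cycs, had a mean of 221 TPM in the alignment-free table and 15.0 TPM in the gene table (12.6 and 17.4). Dhodh was the lowest of the 9 in the gene table, with 9.88 and 11.4 TPM.

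The 13 mitochondrially encoded subunits stood far higher, with a median of 1697 TPM, and took 2.65% and 2.57% of all counts. mt-Co1, the catalytic subunit of complex IV, had 6690 and 6616 TPM, mt-Nd1 of complex I 3408 and 3854 TPM, mt-Cytb of complex III 3354 and 3413 TPM and mt-Atp6 of complex V 2864 and 2500 TPM. The median of the 13 exceeded the highest nuclear member, Atp5b. Of the 13, 1 was called, mt-Co2, with 832 and 1624 counts and a log2 ratio of -1.02. The mean of mt-Co2 was 68.0 TPM in the gene table and 999 TPM in the alignment-free table. Nuclear copies of mitochondrial genes can share such reads, and their part in this call was not tested.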

How the data were processed

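Members and lists were chosen with earlier results of these data known. For each library the authors deposited a gene table and a transcript table of expected counts and TPM, based on reads aligned to the transcriptome, and a second transcript table of estimated counts and TPM made without an alignment, all on mm10 with GENCODE M21, per the files' descriptions. The deposited TPM values divide counts by effective length and then sum to the same total everywhere, so short RNAs weigh heavily. Which programs were run, and whether reads were counted by strand: not given in the sources used here. Exons of 26 members overlap another gene on the opposite strand and those of 6 on the same strand, so their reads cannot always be told apart. The 26248 rows named by a number instead of a gene (3 and 2 counts) and spike-ins were left out. Alignment-free values were summed per gene.

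Levels come from the gene tables, as the mean TPM of both libraries ± SD, and detection is a mean of 1 TPM or more. Counts were rounded, filtered with filterByExpr and given TMM sizes in edgeR 4.0.16 (R 4.3.3). The exact binomial test used scipy 1.17.1, with a prior count of 0.5 in log2 ratios. It was also run on simulated counts that held counting error only, the spread that the test assumes. That run therefore cannot show how the test behaves where libraries differ by more. With 2 libraries of 1 group no other test was possible. Copies were found with BLAST 2.17.0. Promoters come from RefSeq (GRCm38.p6); 16 symbols had no entry there. Alternatives included DESeq2 1.42.0 size factors, spike-in sizes, no filter, the alignment-free tables, rescaled TPM and leaving out a library. Genes were named by rule: the 4 highest and 2 lowest of each complex, all of the isoform pairs, those called between libraries, the 5 furthest apart each way between tables, those with a main transcript not annotated as coding, and the 4 highest of context lists; others named were chosen after their values were seen. A result that this rule would name is not reported here.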

Additional observations from a re-analysis of the deposited data

Results flagged for a closer look

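The rule on names left out genes that carry a subunit's name without a protein-coding transcript, and 3 of them had more than 3 counts in both libraries and at least 1 TPM in the gene tables. Ndufb4c, a processed pseudogene copy of Ndufb4, had a mean of 111.1 TPM (110.1 and 112.1 TPM in replicates 1 and 2), above Ndufb4 itself, and was at 0 in the alignment-free tables. Ndufb1-ps, annotated as a long non-coding RNA of a bidirectional promoter and named for the subunit Ndufb1, had a mean of 49.7 TPM (49.8 and 49.6 TPM). Cox6c2, a processed pseudogene named after Cox6c, had a mean of 1.43 TPM from 5.20 and 6.57 estimated counts.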

How the results depend on the processing

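No paired analysis was possible because the series holds 1 group. The alignment-free tables gave median TPM of 248 for all members, 199 for complex I, 189 for complex II, 373 for complex III, 331 for complex IV and 343 for complex V; rescaling to protein-coding genes gave 297, 240.3, 317, 468, 310.2 and 383 for the same groups. Adding copies, chosen after seeing the data, gave 123 for all members, 93.5 for complex I and 134 for complex IV. Without tissue forms and Atp5s the medians were 124 for all members and 209.0 for complex IV, which then stood above complex III. Leaving out a library gave medians of 106.9 to 116.3 for all members and 87.1 to 90.3 for complex I. The alignment-free log2 ratios were -4.35 for Cox6b2 over Cox6b1, -1.32 for Cox7a1 over Cox7a2, -1.40 for Cox8b over Cox8a, -1.58 for Atp5g1 over Atp5g3, -0.78 for Atp5g2 over Atp5g3 and -0.81 for Cox7a2l over Cox7a2. With copies added they were -1.18 for Atp5g1 and -0.70 for Atp5g2 over Atp5g3, and Cox7a2l over Cox7a2 reversed to 0.42; the reads of its copy make this change by construction. With no count filter 2 members were called, Cox6a2 and Atp5g2, and 4 exceeded 1.5-fold, the others being Cox8c and the second Atp5o at 3 counts or fewer. Main transcripts not annotated as coding numbered 9 in the alignment-based tables and 15 to 16 with a library left out. With copies 1 member remained over 2-fold above the shift between tables. In the 150 bases nearest the start, NF-Y letters occurred in 20 and TATA box letters in 3 member promoters, against 31 and 8 in the whole window. Of 50 named members, 47 had higher alignment-free TPM beyond the spread of the libraries, 49 higher rescaled TPM and 7 higher TPM with copies; where no value shows the cause, it was not tested. The median log2 ratio of members between libraries ran from -0.05 with spike-in sizes to 0.01 with alignment-free counts, and 81 to 83 members were detected under every alternative tried. Counts under about 30, as for Cox4i2, limit the precision of the lowest members.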
